A study of Mus musculus with 21 samples.

Results

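The baseline difference between CD4+ and CD8+ T cells was described in 9 of the 21 spleen samples of the series, namely the 5 CD4+ and the 4 CD8+ samples from mice kept in the standard environment (SE). The samples were chosen by their labelled population and housing, and no sample from the enriched environment was used. All mice were female C57BL6/J animals with no transgene and no treatment. SE was a cage of 666 cm2 for 5 to 6 mice without objects, and the 4 weeks of differential housing began at 4 weeks of age. The labels place the SE animals in 1 cage, so that a cage effect is shared by both populations. Splenocytes were sorted by flow cytometry as CD45+ CD11b- CD3+ cells that were either CD4+ or CD8+, and each population was taken whole, with no gate for naive, memory or regulatory cells. Taking the replicate number in the labels as the animal, 3 of the 6 mice gave both populations (animals 1, 3 and 6). Of the others, 2 gave CD4+ cells only (animals 4 and 5) and 1 gave CD8+ cells only (animal 2). Replicate numbers below are these animal numbers, and values are listed in the order 1, 3, 4, 5 and 6 for CD4+ samples and 1, 2, 3 and 6 for CD8+ samples.

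CD4+ and CD8+ T cells leave the thymus as separate lineages from a common double-positive precursor. CD4+ T cells see peptides on MHC class II molecules and help B cells, macrophages and other T cells through surface ligands and cytokines, and they include the regulatory T cells. CD8+ T cells see peptides on MHC class I molecules and can become killer cells armed with granule proteins. The zinc-finger factor ThPOK, encoded by Zbtb7b, holds cells in the CD4 lineage, while the Runt-domain factor Runx3 holds them in the CD8 lineage, and each represses the other.

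Expression is given as normalized counts, that is, unique transcript molecules divided by a size factor per sample, and a log2 difference is between group means of log2(normalized count + 1). The samples held 157556 to 190885 molecules in the CD4+ group and 179008 to 203322 in the CD8+ group. The sorting genes followed the labels. Cd4 read 54.6, 58.6, 47.5, 42.8 and 57.4 in the CD4+ samples and 0, 0.931, 0.883 and 0.961 in the CD8+ samples. Cd8a read 3.09, 0, 1.83, 0.95 and 0 in the CD4+ samples against 91.6, 116, 99.8 and 83.6 in the CD8+ samples, and Cd8b1 read 5.15, 9.15, 1.83, 2.85 and 5.63 against 183, 221, 217 and 195. These 3 genes check the sort and are not results. Both groups carried the T-cell receptor transcripts that define T cells, with Cd3e at 71 to 106 in CD4+ and 67.3 to 114 in CD8+ samples and Trac at 25.7 to 52.9 and 23.3 to 36.8.

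Transcripts of other cells were present in some samples. The 24 B-cell marker genes summed to 95 molecules in CD4+ replicate 1 and to 315 to 647 molecules in the other 4 CD4+ samples, against 81 to 112 in the CD8+ samples. Cd37 and Ighm, neither of which was called, made up most of the low sums. Cd37 held 54 molecules in CD4+ replicate 1, 41 to 72 in the other CD4+ and 32 to 69 in CD8+ samples. Ighm held 21, 30 to 59 and 34 to 50. The sum, which is also the basis of the B-cell covariate below, therefore understates the contrast in the other markers. The B-cell gene Ms4a1 was at 0 molecules in every CD8+ sample and in CD4+ replicate 1, and at 1 to 8 molecules in the other CD4+ samples. CD8+ replicate 3 held 1174 molecules of the erythroid and platelet markers, nearly all from globin genes, against 1 to 16 in the other 8 samples. The 8 myeloid markers in the table summed to 53 to 103 molecules in CD4+ and 59 to 91 in CD8+ samples, with members in either direction: Lyz2 was at 0 in all CD4+ samples and at 1 to 12 molecules in the CD8+ samples, while Cybb was at 0 to 6 molecules in CD4+ samples and at 0 in all CD8+ samples. The NK-cell marker Klrb1c was at 0 in all 9. Of the 5 NK-cell markers in the table, the sum was 1 to 10 molecules in either group. The part of these cells in any result was not tested unless a value is given beside it.

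**Figure D1:**
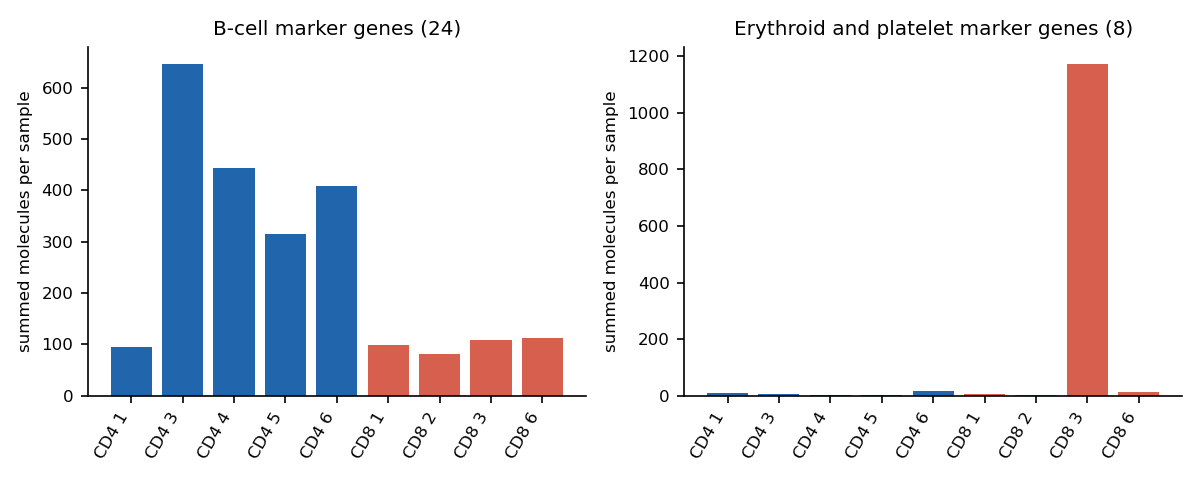
Summed molecules of the 24 B-cell marker genes (left) and of the 8 erythroid and platelet marker genes in the table (right) in each of the 5 CD4+ (blue) and 4 CD8+ (red) SE samples, named by animal number. CD4+ replicates 3, 4, 5 and 6 stand above all other samples for B-cell markers, and CD8+ replicate 3 holds 1174 erythroid and platelet molecules.

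Outside the sorting genes, 102 genes passed the test, 47 of them higher in CD4+ and 55 higher in CD8+ samples. Of 7961 genes with a mean above 2 normalized counts, 105 (1.32%) had an adjusted p under 0.05 in limma, of which 48 (0.603%) were higher in CD4+ and 57 (0.716%) higher in CD8+ samples. The log2 difference of the called genes had a median size of 2.00 in the CD4+ direction and 2.09 in the CD8+ direction. The groups did not overlap in 88 of the 105 called genes, 42 of them higher in CD4+ and 46 higher in CD8+ samples. Over all genes tested, called or not, 292 (3.67%) did not overlap, of which 141 (1.77%) were higher in CD4+ and 151 (1.9%) higher in CD8+ samples. Because whole populations were measured, fewer cells of a type and less RNA per cell cannot be told apart.

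Over all genes tested, distances between samples of different groups were close to those within a group. The ratio of the mean distance between groups to that within them was 1.06, and 1.15 with only genes of a mean above 10. The mean Euclidean distance between samples over the tested genes was 89.4 within the CD4+ group, 81.7 within the CD8+ group and 91.6 between the groups. Without the called genes the distance between the groups was 87.5, against 88.8 and 81.3 within them. That fall was fixed by the choice, as these genes were called in the same samples because they differ between the groups. The median log2 difference over all genes tested was -0.0081.

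With the mouse as a fixed block in the 3 mice that gave both populations, 61 genes were called, 60 of them among the 105, and without the block the same 6 samples gave 58. With the B-cell marker level as a covariate, a choice made after seeing the data, 28 genes were called and all 105 genes kept their direction. CD4+ replicate 1 alone, the sample with the least B-cell RNA, gave 44 called genes against the 4 CD8+ samples, and all 95 of the 105 genes that could be tested there kept their direction.

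Of the 50 called genes described here outside the sorting genes, many lost their call in these fits while the log2 difference mostly stayed within 1.5 times of that with all samples. With the B-cell covariate 29 calls ended (adjusted p = 0.0697 to 0.991), and in 15 of these genes the difference stayed within 1.5 times. Among them were Cd6 (0.79 without and 0.75 with the covariate, CD4+ minus CD8+), Btla (1.90 and 1.89), Anxa2 (2.47 and 2.44), Gpr183 (1.04 and 0.90), Stmn1 (1.89 and 1.73), St8sia6 (2.47 and 3.06), Trbv1 (1.35 and 1.77), Trbv29 (-1.72 and -1.40), Cd226 (-1.79 and -1.45) and Cxcr6 (-2.09 and -2.65). The difference was smaller by more than that in the other 14, which were the 5 B-cell genes, Zbtb7b, Runx3, Dapl1, Maf, S100a6 (1.93 and 1.13), Itgb3, Pkm (0.61 and 0.39), Trbv16 (-2.04 and -0.63) and Trbv12-1 (-2.48 and -1.64).

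With CD4+ replicate 1 alone, 7 of the 50 genes could not be tested and 23 calls ended (adjusted p = 0.0664 to 0.911), in 16 of them with a difference within 1.5 times. Those of Cd40lg (4.42 with all samples and 4.45 here), Pdlim4 (3.54 and 3.76) and Izumo1r (2.07 and 2.29) were among the 16. The others were Igfbp4, Runx3, Cd6, Ctla4, Btla, Cd226, Capg, S100a6, Gpr183, Cxcr6, St8sia6, Stmn1 and Trbv29. The difference was smaller by more than 1.5 times for Cd74, Dapl1, Itgb3, Pkm, Trbv16 and Trbv12-1 and larger for Trbv1.

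With the total of molecules as a covariate 16 calls ended (adjusted p = 0.0653 to 0.682), namely those of Runx3, Dapl1, Cd6, Btla, Cd226, Capg, Anxa2, S100a6, Gpr183, Cxcr6, Itgb3, H2-Q6, St8sia6, Pkm, Stmn1 and Trbv12-1. The difference stayed within 1.5 times except for Stmn1 (1.89 and 1.23). With the mouse as a fixed block, in 6 samples, 15 calls ended (adjusted p = 0.0522 to 0.434), namely those of Zbtb7b, Dapl1, Ctla4, Btla, Cd226, Capg, Maf, Anxa2, S100a6, Gpr183, Cxcr6, Itgb3, Pkm, Stmn1 and Trbv29, all with a difference within 1.5 times. DESeq2 did not call 8 of the 50, namely Btla, S100a6, Gpr183, H2-Q6, Stmn1, Trbv1, Trbv14 and Trbv29 (adjusted p = 0.0536 to 0.9997), and edgeR did not call S100a6, Stmn1 and Trbv29 (adjusted p = 0.0555 to 0.344).

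**Figure D2:**
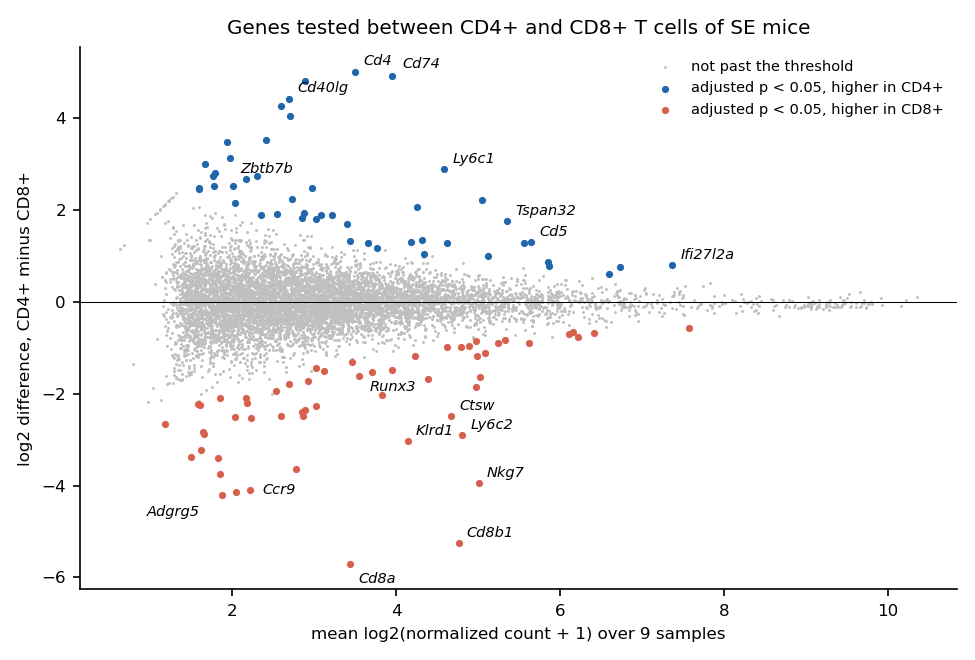
Log2 difference (CD4+ minus CD8+) against mean log2(normalized count + 1) over the 9 samples for the 7961 genes tested. Blue points are the 48 genes called higher in CD4+ samples, red points the 57 called higher in CD8+ samples, and grey points the rest; the 3 sorting genes and 14 others are named.

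The opposed lineage factors differed in opposite directions. Zbtb7b (chr3:89377644-89394776, minus strand, mm10) read 1.03, 9.15, 16.5, 14.2 and 20.3 in the CD4+ samples and 0, 0.931, 0 and 0 in the CD8+ samples. It was low in CD4+ replicate 1, near the level of the CD8+ samples, and above 9 in the other CD4+ samples. The log2 difference was 3.13 ± 0.58 (SE, n = 5 and 4, adjusted p = 0.0002). Replicate 1 is also the CD4+ sample with the fewest B-cell molecules, and with the B-cell marker level as a covariate Zbtb7b was not called (adjusted p = 0.883). With the mouse as a fixed block its adjusted p was 0.0876. Runx3 (chr4:135120652-135177990, plus strand) read 9.27, 3.66, 5.49, 9.5 and 4.5 in the CD4+ samples and 29.1, 20.5, 16.8 and 18.3 in the CD8+ samples. The groups did not overlap, and the mean in CD8+ samples was 3.26-fold higher (log2 difference 1.61 ± 0.35, adjusted p = 0.00215). It was not called with the B-cell covariate (adjusted p = 0.858) or with the total of molecules as a covariate (adjusted p = 0.0867).

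Other regulators of the lineage choice did not pass the test. Of 8 tested CD4 lineage genes, which count Cd4 itself, only Cd4 and Zbtb7b were called, and of 8 tested CD8 lineage genes only Runx3 was. Satb1, a chromatin organizer needed for CD4 lineage genes, averaged 77.8 ± 13.4 (SD, n = 5) in CD4+ and 56.4 ± 12 (SD, n = 4) in CD8+ samples (adjusted p = 0.297). Bcl11b, which maintains T-cell identity, averaged 43.5 ± 14.7 and 38.2 ± 4.67. The inhibitors of E proteins Id2 and Id3 averaged 25.7 ± 15.4 and 24.5 ± 7.34 in CD4+ samples against 19 ± 5.75 and 19.8 ± 8.02 in CD8+ samples, and neither passed.

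Promoter sequences of the factors and of the leading CD8+ gene Nkg7 are shown because Runx proteins bind the letters TGTGGT and TGCGGT. Each runs from 250 bases before to 50 bases after a gene start in RefSeq (GRCm38.p6), on the strand of the gene. Capitals mark these letters on either strand. Where a gene had more than 1 promoter listed, only the first was used, here and in the shares below. Zbtb7b and Runx3 each had 2.
Zbtb7b (chr3:89393329-89393628, minus strand): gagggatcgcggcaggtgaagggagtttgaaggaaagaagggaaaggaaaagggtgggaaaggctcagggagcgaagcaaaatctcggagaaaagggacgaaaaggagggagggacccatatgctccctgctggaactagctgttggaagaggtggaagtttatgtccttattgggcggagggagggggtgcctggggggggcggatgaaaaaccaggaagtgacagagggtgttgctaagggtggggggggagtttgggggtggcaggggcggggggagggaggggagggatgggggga
Runx3 (chr4:135120395-135120694, plus strand): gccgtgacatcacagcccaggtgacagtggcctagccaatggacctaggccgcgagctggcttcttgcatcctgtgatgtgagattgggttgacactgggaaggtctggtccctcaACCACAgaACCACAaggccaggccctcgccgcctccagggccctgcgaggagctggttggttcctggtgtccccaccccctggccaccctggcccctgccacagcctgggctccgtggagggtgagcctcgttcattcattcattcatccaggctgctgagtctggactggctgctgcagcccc
Nkg7 (chr7:43436888-43437187, plus strand): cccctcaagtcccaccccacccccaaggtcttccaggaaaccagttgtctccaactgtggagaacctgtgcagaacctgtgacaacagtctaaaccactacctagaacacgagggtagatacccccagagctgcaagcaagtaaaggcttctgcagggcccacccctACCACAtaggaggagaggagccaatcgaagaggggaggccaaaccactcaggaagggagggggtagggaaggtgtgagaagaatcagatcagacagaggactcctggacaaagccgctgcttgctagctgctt
The Zbtb7b window held no match, the Runx3 window 2 and the Nkg7 window 1, while the window of Ccr9, another leading CD8+ gene, held 0. Of the 37 promoters found for the 57 genes higher in CD8+ samples, 15 (40.5%) held a match, against 8 of 33 (24.2%) for the genes higher in CD4+ samples and 1225 of 5737 (21.4%) for all genes tested. The order of these shares changed with the calls. With the B-cell covariate the share was 45.5% for genes higher in CD8+ and 60.0% for genes higher in CD4+ samples. With CD4+ replicate 1 alone it was 30.4% and 66.7%. Only genes with a promoter found enter a share. Not all of the 10 genes called higher in CD4+ samples with the covariate had one. The CD4+ shares of both fits therefore rest on few promoters. A match is a description of these letters and not a binding site.

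Some genes of granule-bearing killer cells were higher in CD8+ samples, although granzymes A and B were hardly detected. Of 15 tested cytotoxic and effector genes, 3 were higher in CD8+ samples (Nkg7, Ctsw and Cst7), 2 were higher in CD4+ samples (Anxa2 and S100a6) and 10 did not pass. The median log2 difference of the list was -0.46, against -0.0081 for all genes tested. It was 0.045 without CD4+ replicate 1, and -0.71 to -0.49 without each other sample in turn.

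Nkg7 (chr7:43437073-43438249, plus strand), a granule membrane protein of killer cells needed for degranulation, read 155, 147, 148 and 135 in the CD8+ samples. In the CD4+ samples it read 1.03, 14.6, 17.4, 16.1 and 6.76, with replicate 1 lowest. It was 13.1-fold higher in CD8+ samples (log2 difference 3.95 ± 0.31, adjusted p = 7.14e-16), with the smallest p of the called genes outside the sorting genes. Ctsw, which encodes cathepsin W, a protease of killer cells, read 60.8, 60.5, 83 and 60.6 in CD8+ and 5.15, 12.8, 14.6, 9.5 and 15.8 in CD4+ samples. The groups were far apart, with a 5.72-fold difference of the means (log2 2.49 ± 0.26, adjusted p = 3.71e-11). Cst7, encoding cystatin F, an inhibitor of granule cathepsins, read 21.4, 17.7, 16.8 and 18.3 in CD8+ and 3.09, 0, 7.31, 4.75 and 4.5 in CD4+ samples (4.71-fold, adjusted p = 0.000396). Nkg7 and Ctsw were still called with the B-cell covariate, and Cst7 was not (adjusted p = 0.603), with a log2 difference of -1.71 against -2.27 without it (CD4+ minus CD8+).

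Among the effector molecules, Gzma and Gzmb, encoding granzymes A and B, were each at 0 molecules in all CD4+ samples and at 1 molecule in all CD8+ samples together. Prf1, which encodes perforin, read 12.8, 4.66, 4.42 and 8.65 in CD8+ and 1.03, 2.75, 1.83, 2.85 and 2.25 in CD4+ samples, with groups that did not overlap but an adjusted p of 0.254. Ccl5, a chemokine of memory T cells, read 98.5, 1.86, 23.9 and 8.65 in CD8+ and 0, 45.8, 35.7, 32.3 and 4.5 in CD4+ samples, with a wide range in both groups that overlapped. Ccl5 was called higher in CD8+ samples with the B-cell covariate (log2 difference -3.75, adjusted p = 0.0335) and with CD4+ replicate 1 alone (-4.01, adjusted p = 0.0189), against -0.36 with all samples. These 4 list members were chosen after their values were seen. Srgn, the granule proteoglycan, averaged 85.7 ± 11.5 in CD4+ and 66.1 ± 6.92 in CD8+ samples and Lgals1, encoding galectin-1, 58.9 ± 11 and 37.6 ± 15.9 (SD), and neither passed.

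A receptor shared with NK cells and a few receptors for tissue homing were also higher in CD8+ samples. Klrd1, encoding CD94, the partner of the NKG2 receptors, read 50.5, 66.1, 45 and 64.4 in CD8+ and 11.3, 5.49, 3.66, 3.8 and 7.88 in CD4+ samples. It was 8.79-fold higher in CD8+ samples (log2 3.04 ± 0.30, adjusted p = 5.06e-12) and was 1 of only 2 genes of its list of 24 that could be tested. Hcst, the signalling adaptor DAP10, averaged 76.3 ± 5.21 in CD4+ and 92.7 ± 17.2 in CD8+ samples and did not pass. Ccr9, the receptor for the gut chemokine CCL25, read 15.4, 24.2, 23.9 and 24 in CD8+ samples and 1.03, 0, 0, 0.95 and 0 in CD4+ samples, where 2 molecules were found in all. Itgae, encoding the integrin CD103 that binds E-cadherin on epithelium, read 12, 8.38, 21.2 and 19.2 in CD8+ samples and was at 1 molecule in all CD4+ samples together. Both were called in each of the 9 fits that left out a sample, with log2 differences of 4.10 ± 0.50 for Ccr9 (adjusted p = 8.89e-09) and 3.75 ± 0.56 for Itgae (adjusted p = 1.72e-06).

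Cxcr6, the receptor for CXCL16, averaged 10.1 ± 5.96 in CD8+ and 1.71 ± 1.47 in CD4+ samples (5.91-fold, adjusted p = 0.0194), a call that ended without CD4+ replicate 5 or CD8+ replicates 2 or 6 (adjusted p = 0.0606 to 0.256). In the CD4+ direction of the same list of 11 tested receptors, Gpr183, the oxysterol receptor EBI2 that guides cells in the follicle, averaged 27.3 ± 4.92 in CD4+ and 13 ± 3.86 in CD8+ samples (2.1-fold, adjusted p = 0.0263). That call ended without CD4+ replicates 3, 4 or 6 or CD8+ replicates 2, 3 or 6 (adjusted p = 0.0571 to 0.159). The 8 other receptors did not pass. Of 20 tested integrin and adhesion genes, 1 was higher in each direction: Itgae, above, and Itgb3, the beta chain of the vitronectin receptor. Itgb3 read 8.236, 19.2, 9.14, 22.8 and 16.9 in CD4+ and 1.71, 1.86, 4.42 and 5.77 in CD8+ samples (log2 1.89 ± 0.40, adjusted p = 0.00216), and with the B-cell covariate the log2 difference was 1.09 (adjusted p = 0.817). Cd2 averaged 63.3 ± 15.1 and 64.3 ± 12.3 and Itgb7, the partner of CD103, 61.7 ± 3.15 and 65.2 ± 4.83 in CD4+ and CD8+ samples, with no call.

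**Figure D3:**
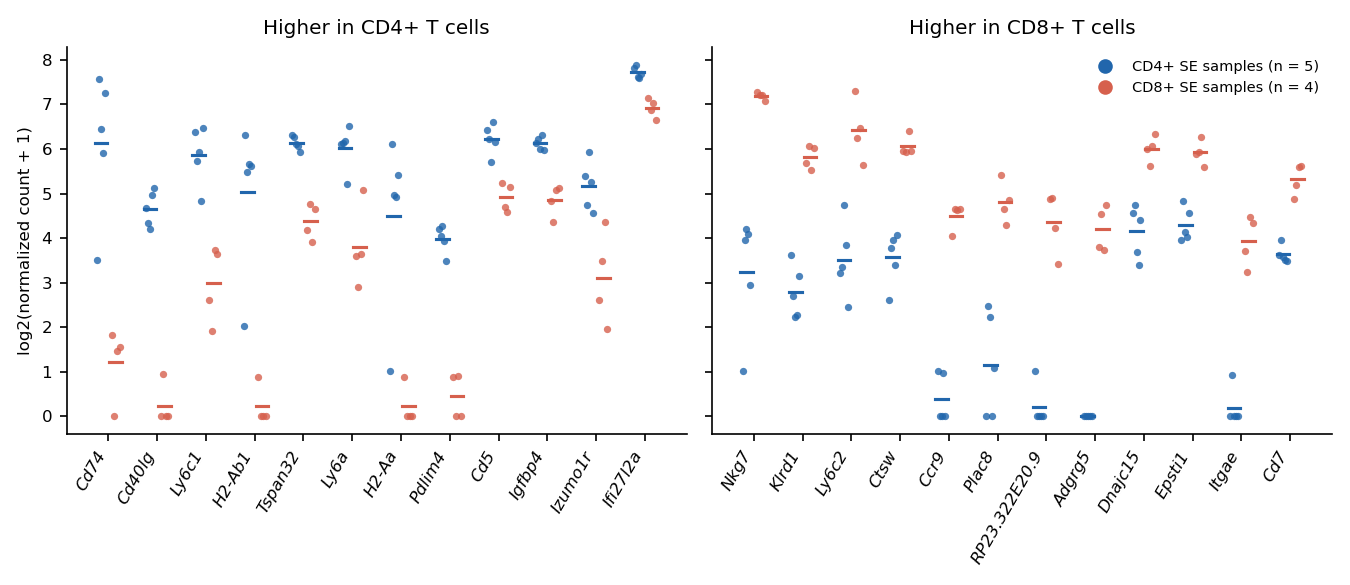
Log2(normalized count + 1) in each sample for the 12 genes higher in CD4+ (left) and the 12 higher in CD8+ samples (right) with the smallest p among called genes whose groups did not overlap. Points are samples, lines are group means, CD4+ in blue (n = 5) and CD8+ in red (n = 4); CD4+ replicate 1 is the low blue point for Cd74, H2-Ab1, H2-Aa and Nkg7.

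Further leading genes on the CD8+ side were the following. Adgrg5, an adhesion G-protein-coupled receptor, read 12.8, 22.4, 12.4 and 25.9 in CD8+ samples and 0 in every CD4+ sample, which is at least 31.2-fold higher when the CD4+ group is set to 3 molecules. Plac8 read 42, 24.2, 18.6 and 27.9 in CD8+ and 0, 4.58, 3.66, 0 and 1.13 in CD4+ samples (15-fold, adjusted p = 3.03e-08). Dnajc15, a mitochondrial co-chaperone, averaged 64.2 ± 12.9 against 18 ± 6.97 (SD) and Epsti1 60.5 ± 11.9 against 19.2 ± 5.61 in CD8+ and CD4+ samples. Cd7, an immunoglobulin-family receptor of T and NK cells, averaged 39.9 ± 9.71 against 11.5 ± 1.81. The adjusted p was 7.02e-08 for Dnajc15, 5.03e-07 for Epsti1 and 7.55e-06 for Cd7. The clone-named gene model RP23.322E20.9, which matched no annotated gene, read 28.3, 28.9, 17.7 and 9.61 in CD8+ samples and 1 molecule in all CD4+ samples together. These genes did not overlap between the groups, and all of them except RP23.322E20.9 (adjusted p = 0.0774) were still called with the B-cell covariate; its log2 difference was -3.22 with and -4.15 without it (CD4+ minus CD8+).

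A few genes of T-cell help and of the modulation of T-cell receptor signals were higher in CD4+ samples. Of 21 tested genes of help and costimulation, 3 were higher in CD4+ samples (Cd40lg, Ctla4 and Btla), 1 was higher in CD8+ samples (Cd226) and 17 did not pass, with a median log2 difference of 0.37 over the list (0.14 to 0.47 in the fits that left out 1 sample, lowest without CD4+ replicate 4). Cd40lg (chrX:57212143-57224042, plus strand), the CD40 ligand with which CD4+ T cells license B cells and dendritic cells, read 24.7, 19.2, 17.4, 30.4 and 33.8 in the CD4+ samples. In the CD8+ samples it read 0, 0.931, 0 and 0, that is, 1 molecule in all. The log2 difference was 4.42 ± 0.44 (adjusted p = 6.1e-12, and 3.73e-05 with the B-cell covariate). Cd40lg in CD4+ replicate 1 lay within the range of the other CD4+ samples.

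Ctla4, the inhibitory receptor that competes with CD28, read 13.4, 5.49, 14.6, 3.8 and 3.38 in CD4+ samples and 0, 0, 0 and 0.961 in CD8+ samples (adjusted p = 0.00195). Btla, an inhibitory receptor for HVEM, read 11.3, 9.15, 9.14, 6.65 and 12.4 in CD4+ and 2.57, 0.931, 0.883 and 3.85 in CD8+ samples. It was 4.73-fold higher in CD4+ samples (adjusted p = 0.0111), and the call ended without CD8+ replicates 2 or 3 (adjusted p = 0.0546 to 0.0569) and with DESeq2 (adjusted p = 0.0536). Cd226, the activating receptor DNAM-1, averaged 12.4 ± 4.6 in CD8+ and 2.89 ± 1.29 in CD4+ samples (4.28-fold, adjusted p = 0.0142), and this call ended without CD8+ replicates 1, 2 or 6 (adjusted p = 0.0583 to 0.179). The costimulatory receptor Cd27 averaged 67.3 ± 14.8 in CD4+ and 77.8 ± 16.9 in CD8+ samples and Slamf6 33 ± 9.36 and 33 ± 11.1, with no call for either.

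Of 37 tested genes of the T-cell receptor complex and its proximal signalling, 2 were higher in CD4+ samples, both scavenger-receptor proteins that damp the receptor signal. Cd5 (chr19:10717116-10739002, minus strand) read 85.5, 74.1, 51.2, 96 and 69.8 in CD4+ and 36.8, 25.1, 23 and 34.6 in CD8+ samples. It was 2.52-fold higher in CD4+ samples (log2 1.30 ± 0.20, adjusted p = 3.7e-06) and was called in all 9 fits that left out a sample and with the B-cell covariate. Its neighbour Cd6 (chr19:10789341-10830058, minus strand) read 83.4, 86.9, 69.5, 53.2 and 77.7 and 31.7, 40.0, 49.5 and 49 (1.74-fold, adjusted p = 0.0087), a call that ended without CD8+ replicate 1 (adjusted p = 0.113). The other 35 did not pass, and the median log2 difference of the list was 0.0092. Cd3d averaged 178 ± 31.7 in CD4+ and 187 ± 19.2 in CD8+ samples, and Ptprc, the phosphatase CD45, 162 ± 24.8 and 161 ± 16.6.

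Genes known from regulatory and helper subsets were mostly at low levels. Of 10 tested regulatory T-cell genes, 3 were higher in CD4+ samples (Izumo1r, Capg and Ctla4), Itgae was higher in CD8+ samples and 6 did not pass. The list median was 1.55. Izumo1r, the folate receptor 4 of regulatory and anergic T cells, read 41.2, 25.6, 60.3, 37 and 22.5 in CD4+ and 5.14, 10.2, 19.4 and 2.88 in CD8+ samples (3.96-fold, log2 2.07 ± 0.32, adjusted p = 4.96e-06). Capg, an actin-capping protein, read 10.3, 6.41, 10.1, 11.4 and 9.01 in CD4+ and 0, 0, 0 and 5.77 in CD8+ samples (adjusted p = 0.000925). It was at 0 in CD8+ samples other than replicate 6. Foxp3, the factor that defines regulatory T cells, was named after its values were seen: it was at 14 molecules in all CD4+ samples together, in replicates 1, 3 and 4, and at 0 in CD8+ samples, too low to be tested. Ikzf2, encoding Helios, averaged 9.12 ± 6.67 in CD4+ and 3.45 ± 2.81 in CD8+ samples and Tnfrsf18, encoding GITR, 15.7 ± 5.8 and 14.9 ± 3.03, with no call. Maf, a factor of follicular and interleukin-producing helper cells, read 3.09, 13.7, 15.5, 4.75 and 5.63 in CD4+ samples and was at 1 molecule in all CD8+ samples together (log2 2.81 ± 0.58, adjusted p = 0.00116). Only 3 of the 24 entries of the helper effector list could be tested, and the others tested, Batf and Rora, did not pass. With the B-cell covariate neither Ctla4 (adjusted p = 0.111), Capg (0.323) nor Maf (0.773) was called, while Izumo1r was (0.0114). The log2 difference with the covariate was 3.39 for Ctla4 (2.74 without it), 2.65 for Capg (2.67 without it) and 1.62 for Maf.

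Other leading genes on the CD4+ side were Tspan32, Pdlim4, Igfbp4 and Ifi27l2a. Tspan32, a tetraspanin that restrains T-cell proliferation, read 78.2, 76, 68.6, 65.5 and 59.7 in CD4+ and 17.1, 26.1, 14.1 and 24 in CD8+ samples (3.42-fold, adjusted p = 3.58e-09). Pdlim4, a PDZ and LIM domain protein, read 17.5, 15.6, 18.3, 14.2 and 10.1 in CD4+ samples and was at 2 molecules in all CD8+ samples together (adjusted p = 9.85e-08). Igfbp4, which encodes a binding protein of insulin-like growth factors and is known as a transcript of naive T cells, averaged 69.4 ± 7.2 in CD4+ and 28.3 ± 6.45 in CD8+ samples (2.45-fold, adjusted p = 3.72e-06). Ifi27l2a, an interferon-inducible gene, read 226, 237, 196, 193 and 206 and 139.6, 116, 129.8 and 99.97 (1.74-fold, adjusted p = 7.55e-06). All 4 were called in every fit that left out a sample, and Igfbp4 was the only 1 of them not called with the B-cell covariate (adjusted p = 0.0825), with a log2 difference of 1.22 against 1.29 without it. Of the 39 tested genes of the interferon-stimulated list only Ifi27l2a was called, and the list median was -0.13. The list does not hold all such genes: the interferon-inducible Tgtp2, described below, lies outside it and was called higher in CD8+ samples.

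The naive and quiescence list held 1 called gene in each direction among 17 tested, Igfbp4 in CD4+ and Dapl1 in CD8+ samples, with a median log2 difference of 0.15 (0.073 to 0.15 in the fits that left out 1 sample, lowest without CD8+ replicate 6). Dapl1, a transcript of resting T cells, averaged 89.9 ± 13.5 in CD8+ and 56.3 ± 15 in CD4+ samples (1.6-fold, adjusted p = 0.0227). With the B-cell covariate the log2 difference, CD4+ minus CD8+, was -0.044 (adjusted p = 0.991) and with CD4+ replicate 1 alone -0.17, against -0.69 with all samples. The groups overlapped, and the call ended without CD4+ replicates 3, 4 or 6 or CD8+ replicates 1 or 2 (adjusted p = 0.0552 to 0.167). Npm1 averaged 219 ± 33 in CD4+ and 257 ± 19.6 in CD8+ samples and the antiproliferative gene Btg1 125 ± 6.29 and 113 ± 8.55, with no call.

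Ly6 genes, which encode small GPI-anchored surface proteins used as markers of T-cell subsets, went in both directions. Of 6 tested, Ly6c1 and Ly6a were higher in CD4+ samples, Ly6c2 was higher in CD8+ samples and 3 did not pass. Ly6c1 (chr15:75044018-75048830, minus strand) read 82.4, 52.2, 60.3, 27.6 and 87.8 in CD4+ and 5.14, 2.79, 12.4 and 11.5 in CD8+ samples, 7.8-fold higher in CD4+ samples (log2 2.89 ± 0.30, adjusted p = 2.01e-11). Ly6c2 (chr15:75108158-75111970, minus strand) read 8.236, 9.15, 25.6, 13.3 and 4.5 in CD4+ and 156, 75.4, 87.4 and 49 in CD8+ samples, 7.56-fold higher in CD8+ samples (log2 2.90 ± 0.29, adjusted p = 6.1e-12). Neither gene overlapped between the groups, and both were called under each alternative that was run.

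These neighbours are near-identical copies, so reads of one can be assigned to the other and their counts are uncertain. Their annotated transcripts were 95% identical, with a longest shared run of 188 bases, while the promoter windows were 71.3% identical. The windows are printed because they differ where the transcripts hardly do, with the letters TGTGGT and TGCGGT in capitals.
Ly6c1 (chr15:75048788-75049087, minus strand): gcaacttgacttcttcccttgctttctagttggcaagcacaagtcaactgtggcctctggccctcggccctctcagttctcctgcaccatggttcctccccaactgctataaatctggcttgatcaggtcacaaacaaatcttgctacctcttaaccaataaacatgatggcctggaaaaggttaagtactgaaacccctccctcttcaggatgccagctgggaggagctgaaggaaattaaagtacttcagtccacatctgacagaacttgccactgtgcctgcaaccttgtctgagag
Ly6c2 (chr15:75111922-75112221, minus strand): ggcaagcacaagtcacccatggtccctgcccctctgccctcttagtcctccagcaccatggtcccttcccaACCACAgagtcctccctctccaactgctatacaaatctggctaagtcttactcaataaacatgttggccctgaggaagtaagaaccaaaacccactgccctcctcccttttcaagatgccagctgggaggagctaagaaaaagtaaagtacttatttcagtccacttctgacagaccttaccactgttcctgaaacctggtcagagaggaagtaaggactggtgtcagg
The Ly6c2 window held 1 match and the Ly6c1 window held 0. Both genes had 2 promoters listed, of which only the first was used. Ly6a, encoding Sca-1, read 68, 69.5, 71.3, 36.1 and 90.1 in CD4+ and 11.1, 6.52, 11.5 and 32.7 in CD8+ samples (4.34-fold, adjusted p = 3.96e-09). Ly6e averaged 261 ± 53.5 in CD4+ and 194 ± 22.7 in CD8+ samples and did not pass (adjusted p = 0.0896).

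MHC class II genes were high in CD4+ samples, as was Cd79a of the same B-cell marker list. The source of these transcripts was not tested. Mouse T cells do not normally make class II molecules, and all 5 called genes of the B-cell marker list, of 14 tested, were higher in CD4+ samples. Cd74, the invariant chain, read 10.3, 188, 85.9, 58.9 and 151 in CD4+ samples and 2.57, 0, 1.77 and 1.92 in CD8+ samples. H2-Ab1 read 3.09, 78.7, 43.9, 49.4 and 48.4 in CD4+ samples, H2-Aa 1.03, 68.6, 30.2, 29.4 and 41.7, H2-Eb1 2.06, 54.9, 29.3, 29.4 and 37.2 and Cd79a, a chain of the B-cell receptor, 1.03, 22.9, 17.4, 10.4 and 15.8. In CD8+ samples H2-Ab1 and H2-Aa were at 1 molecule each in all, H2-Eb1 at 3 and Cd79a at 0. In each of these genes CD4+ replicate 1 was the lowest CD4+ sample, at 1 to 10 molecules, as in the summed B-cell markers, which contain these genes. With the B-cell covariate, which contains these genes, the adjusted p was 0.0697 for Cd74 and 0.36 to 0.9 for the other 4. Ighm averaged 40.2 ± 14.6 in CD4+ and 37.9 ± 7.65 in CD8+ samples and Cd37 55.9 ± 7.06 and 45.6 ± 15.4, with no call.

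Of 27 tested MHC class I and peptide-loading genes, 1 was called. H2-Q6, a Qa-2 family gene with near-identical neighbours whose counts are therefore uncertain, averaged 53.9 ± 12.6 in CD8+ and 29.9 ± 13.4 in CD4+ samples (1.8-fold, adjusted p = 0.0231), and the call ended without CD4+ replicates 1, 5 or 6 or CD8+ replicates 2, 3 or 6 (adjusted p = 0.0559 to 0.189). B2m averaged 494 ± 56.3 and 525 ± 37.2 and H2-D1 386 ± 33.8 and 370.0 ± 22.2 in CD4+ and CD8+ samples.

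In the T-cell receptor loci, 5 beta-chain V segments differed between the populations. Of 68 tested variable and joining segments, 1 was higher in CD4+ samples (Trbv1) and 4 were higher in CD8+ samples (Trbv16, Trbv12-1, Trbv14 and Trbv29) and 63 did not pass. The list median was 0.38, and 0.21 to 0.41 in the fits that left out 1 sample, lowest without CD8+ replicate 1. A sample held 248 to 366 molecules of the 22 Trbv segments. Trbv16 (chr6:41151740-41152230) made up 9.38, 9.86, 11.0 and 11.9% of them in the CD8+ samples and 4.37, 0.329, 5.00, 1.76 and 2.42% in the CD4+ samples. Trbv12-1 (chr6:41113550-41114067) made up 3.69, 7.82, 4.34 and 5.40% in CD8+ and 1.09, 1.32, 0.294, 1.06 and 0% in CD4+ samples. For both segments the groups did not overlap, in shares or in normalized counts. The shares of Trbv29 did not overlap either, at 3.69, 5.78, 3.76 and 6.475% in CD8+ and 0 to 2.94% in CD4+ samples.

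In normalized counts Trbv16 was 3.39-fold (log2 2.04 ± 0.37, adjusted p = 0.000189) and Trbv12-1 6.52-fold higher in CD8+ samples (log2 2.48 ± 0.47, adjusted p = 0.000396). Both were called in every fit that left out a sample, but not with the B-cell covariate (adjusted p = 0.925 and 0.662). Trbv14 averaged 24.2 ± 11 in CD8+ and 9.07 ± 6.76 in CD4+ samples (adjusted p = 0.0126), and its call ended without CD4+ replicates 1 or 3 or CD8+ replicates 1 or 6 (adjusted p = 0.0632 to 0.169). Trbv29 averaged 13.9 ± 3.1 and 4.78 ± 3.72 (adjusted p = 0.0304), and its call ended without CD4+ replicates 1 or 3 or CD8+ replicates 1, 2, 3 or 6 (adjusted p = 0.0533 to 0.184). Trbv1 averaged 33 ± 14.7 in CD4+ and 12.6 ± 8.94 in CD8+ samples (adjusted p = 0.0108), with CD4+ replicate 5 in the range of the CD8+ samples, and its call ended without CD4+ replicates 1 or 4 or CD8+ replicates 2 or 6 (adjusted p = 0.0513 to 0.109). The segments Trbv12-2 (29.1 ± 9.01 and 26.1 ± 6.24) and Trbv3 (29.4 ± 7.82 and 17.3 ± 9.95) did not pass. Trbv3 was called higher in CD4+ samples with the total of molecules as a covariate (log2 difference 1.88, adjusted p = 0.000474), against 1.00 with all samples and no covariate.

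**Figure D4:**
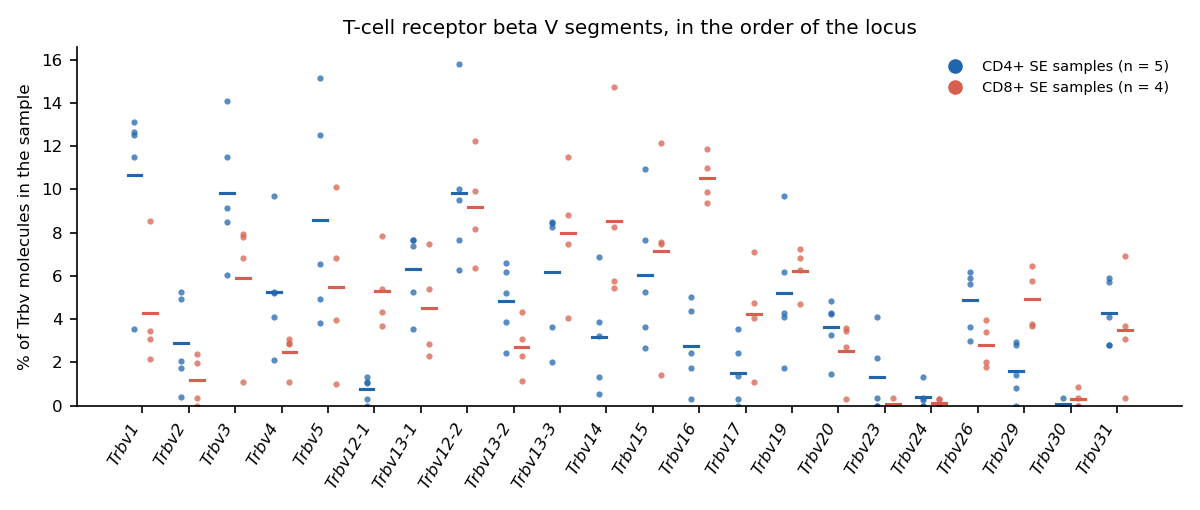
Share of all Trbv molecules in a sample taken by each of the 22 V segments of the T-cell receptor beta chain, in the order of the locus, for CD4+ (blue, n = 5) and CD8+ (red, n = 4) samples; points are samples and lines are group means. Trbv16, Trbv12-1 and Trbv29 are higher in all CD8+ samples than in any CD4+ sample.

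Several lists of general cell programmes held no gene that passed the test. None was called among 79 ribosomal proteins, 83 respiratory chain and ATP synthase genes, 37 proteasome subunits, 25 actin and Arp2/3 genes, 23 cytokine receptors and JAK kinases, 20 heat-shock proteins and chaperonins, 18 immediate-early genes, 9 STAT and SOCS genes, 9 BCL2 family genes or 8 Gimap GTPases, where the background of called genes was 1.32%. The list medians lay between -0.20 for the BCL2 family and 0.40 for the Gimap genes, which encode GTPases of lymphocyte survival. The BCL2 median was -0.68 to 0.0066 in the fits that left out 1 sample, lowest without CD4+ replicate 4 and highest without CD4+ replicate 1. Gimap3 averaged 99.8 ± 14 in CD4+ and 79.7 ± 16.5 in CD8+ samples and Gimap6 96.8 ± 11.6 and 83.3 ± 12. The interleukin-7 receptor gene Il7r averaged 105 ± 14 and 95.6 ± 14.8, and Jak1 84.4 ± 11.4 and 90.7 ± 12.3. Actb read 786, 789, 781, 794 and 729 in CD4+ and 677, 684, 693 and 704 in CD8+ samples, which did not overlap, but its adjusted p was 0.447.

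Single genes were called in 3 further lists, and each call depended on the samples. Of 16 glycolysis genes, Pkm, pyruvate kinase, averaged 116 ± 15.7 in CD4+ and 76.3 ± 14.2 in CD8+ samples (1.52-fold, adjusted p = 0.0212), and the call ended without CD4+ replicates 3, 4 or 5 or CD8+ replicates 1 or 2 (adjusted p = 0.0518 to 0.25). Gapdh averaged 121 ± 12.9 and 116 ± 18.9. Of 15 glycosylation genes, the sialyltransferase gene St8sia6 averaged 6.54 ± 4.44 in CD4+ samples and was at 1 molecule in all CD8+ samples together (adjusted p = 0.0138), and the call ended without CD4+ replicates 1 or 6 (adjusted p = 0.0944 to 0.102). Cmah, which encodes the enzyme that makes N-glycolylneuraminic acid, averaged 26.5 ± 4.45 in CD4+ and 44.2 ± 7.56 in CD8+ samples with groups that did not overlap, and did not pass (adjusted p = 0.101). Of 11 replication and proliferation genes, Stmn1, a microtubule regulator, averaged 8.38 ± 2.38 and 2.53 ± 2.92 (adjusted p = 0.0456), which ended without CD4+ replicates 1, 3, 5 or 6 or CD8+ replicates 1 or 2 (adjusted p = 0.0694 to 0.288).

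In the cytotoxic and effector list the genes higher in CD4+ samples are known from activated and memory cells. Anxa2, encoding annexin A2, read 5.15, 5.49, 2.74, 6.65 and 9.01 in CD4+ samples and was at 1 molecule in all CD8+ samples together (adjusted p = 0.0106), and its call ended without CD4+ replicate 6 (adjusted p = 0.0602). S100a6, a calcium-binding protein, read 10.3, 21.1, 13.7, 5.7 and 15.8 in CD4+ and 12.8, 0, 0 and 9.61 in CD8+ samples (adjusted p = 0.0308). The groups overlapped, the call ended without CD4+ replicates 1, 3, 4 or 6 or CD8+ replicates 2 or 3 (adjusted p = 0.0533 to 0.347), and edgeR (adjusted p = 0.344) and DESeq2 (0.9997) did not call it.

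**Figure D5:**
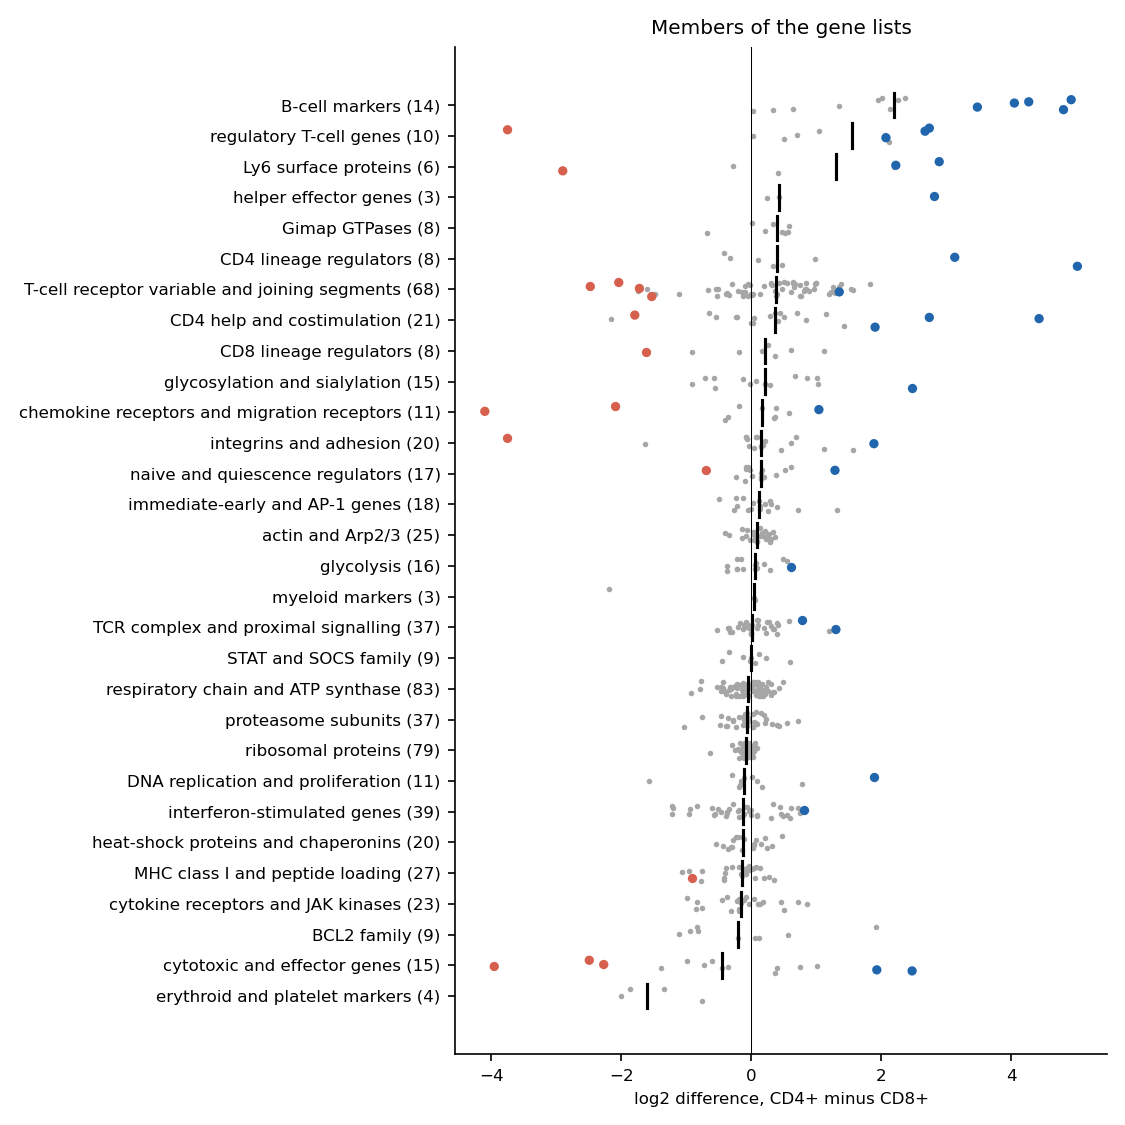
Log2 difference (CD4+ minus CD8+) of each tested member of the gene lists with at least 3 tested members, ordered by the list median (black line), with the number tested in brackets. Blue and red points are members called higher in CD4+ and CD8+ samples and grey points did not pass; the ribosomal, respiratory chain, proteasome and actin lists hold no called gene.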

How the data were processed

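Spleens of SE mice gave 5 samples of sorted CD4+ and 4 of sorted CD8+ T cells. Per the study's methods the cDNA carried unique molecular identifiers in the template-switching oligo, so that molecules were counted at transcript 5′ ends, and was sequenced on an Ion Proton. The authors trimmed reads with cutadapt, aligned them to mm10 with STAR 2.4.0a, used the Drop-seq tools to count molecules against Ensembl genes of GRCm38, dropped genes of low abundance and divided by DESeq2 size factors. Use of strand in counting is not given in the sources used here. The deposited values are this normalized signal, in 12994 genes. All values were whole multiples of 1 molecule (100% within 0.001), so molecules were recovered, and totals were 157556 to 203322 per sample. The number of molecules limits the precision, most for genes of few molecules.

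Of the gene names, 12490 matched a current symbol. The 7961 genes with a mean above 2 over the 9 samples were tested on log2(value + 1) with limma 3.58.1 (trended variance, R 4.3.3) and Benjamini-Hochberg adjustment, threshold 0.05. edgeR 4.0.16 (quasi-likelihood) and DESeq2 1.42.0 on recovered molecules were alternatives. The limma, edgeR and DESeq2 fits of population alone were tested on simulated data; those with covariates, blocks or weights were not. The 16 pairs of samples of a group all differed beyond counting noise. Folds are ratios of mean normalized counts, given where both groups held over 3 molecules, and bounds set a group at 0 to 3 molecules over the group. Positions are from GENCODE M21 on GRCm38, the build of mm10.

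Named are the sorting genes, the 12 genes of smallest p in each direction among called genes whose groups did not overlap, leaving out the sorting genes and models named Gm, Rik or -ps, up to 6 called members of each gene list in each direction and its 2 highest members not called, and markers of other cells; a few of the list members that did not pass are left to the counts. The comparison, the gene lists and the named genes were chosen with earlier results of these data known. The methods state that CD4+ samples with both Cd8a and Cd8b transcripts were excluded, and 3 of the 5 samples used here held both; they were kept. For the 3 mice that gave both populations, the correlation of the deviations from the group means was -0.00348 to 0.0217 between samples of 1 mouse and -0.0334 to 0.039 between samples of different mice. The mouse is taken from the replicate number in the labels.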

Additional observations from a re-analysis of the deposited data

Results flagged for a closer look

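Among 210 groups of values of the named genes, 23 had a sample whose gap to the nearest of the others exceeded the 95% critical value of Dixon's test, where chance flags about 1 in 20 groups, or 10.5 here.

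The globin genes stood out in CD8+ replicate 3, at 493.7 normalized counts for Hba-a1 (0 to 8.65 in the other CD8+ samples) and 303 for Hbb-bs (0 to 0.857 in the others). Leaving that sample out gave 88 called genes against 105. In the same sample Ctsw read 83.0 (60.5 to 60.8 in the others) and Gapdh 144 (105 to 109).

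CD8+ replicate 1 had the lowest Ccr9, at 15.4 (23.9 to 24.2 in the others), and CD8+ replicate 6 the only Capg, at 5.77 from 6 molecules (0 in the others). CD8+ replicate 2 had the highest Cd72, at 15.8 (12.0 to 12.5 in the others). In the CD4+ group, replicate 3 was high for Cd7, at 14.6 (10.1 to 11.3 in the others), and replicate 6 low for Actb, at 728.7 (780.8 to 794.2 in the others).

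The remaining 14 rested on 0 to 3 molecules. Cd4 was at 0 in CD8+ replicate 1 and at 1 molecule in the other CD8+ samples. A single molecule in a group otherwise at 0 gave Zbtb7b and Cd40lg 0.931 in CD8+ replicate 2, Ctla4 0.961 in CD8+ replicate 6, Maf and St8sia6 0.883 in CD8+ replicate 3, Anxa2, H2-Ab1, H2-Aa, Gzma and Gzmb 0.857 in CD8+ replicate 1, Itgae 0.915 in CD4+ replicate 3 and RP23.322E20.9 1.03 in CD4+ replicate 1. H2-Eb1 read 2.57 in CD8+ replicate 1, from 3 molecules, and 0 in the others.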

How the results depend on the processing

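Of 105 called genes, 61 were called in every fit that left out 1 sample, and the count was 78 to 110 in those fits (39 to 55 higher in CD4+, 39 to 59 higher in CD8+). It was 108 with the same total for each sample, 97 with a pseudocount of 0.5, 132 without a filter, 137 in edgeR (71 and 66), 92 in DESeq2 (46 and 46) and 121 with sample weights. With a mean above 10 it was 64 (31 higher in CD4+, 33 in CD8+), where fewer genes were tested. With log2 total molecules as covariate it was 66 (31 and 35), and with the 3 CD4+ samples holding both Cd8a and Cd8b1 left out 65 (21 and 44). Alternatives chosen after seeing the data gave 28 with the B-cell marker level as covariate (10 and 18) and 44 with CD4+ replicate 1 as the only CD4+ sample (7 and 37), whose spread is assumed to be that of the other group. Fewer samples entered the fits that left samples out; otherwise the cause was not tested. In all, 1218 of 1461 recomputed values of 65 named called genes stayed past the threshold, 243 did not and 0 changed sign, while genes not called changed sign in 76 of 846 values.

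With the mouse as a random replicate block the count was 106 (48 and 58). With it as a fixed block in the 3 mice that gave both populations it was 61 (25 and 36), against 58 (23 and 35) in the same mice without the block, also an alternative chosen after seeing the data. In those mice, with and without the block alike, the median of the CD8 lineage list was -0.22, of the Ly6 list 0.51 and of the proliferation list 0.21.

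Of 689 recomputed list medians (log2 difference), 42 moved beyond the spread between samples, and the cause was not tested. With all samples the median was 0.40 for CD4 lineage, 0.21 for CD8 lineage, 0.37 for help and costimulation, 0.42 for helper effector, -0.46 for cytotoxic, 0.16 for migration, 0.15 for integrin, 1.31 for Ly6, -0.13 for heat-shock, 0.058 for glycolysis, -0.11 for proliferation, 2.19 for B-cell, 0.048 for myeloid, -1.61 for erythroid, -0.086 for ribosomal and 0.38 for T-cell receptor segment genes. With the B-cell covariate the median was 0.66 for CD4 lineage, -0.11 for CD8 lineage, -0.33 for helper effector, -1.71 for cytotoxic, 0.31 for Ly6, -0.25 for heat-shock, 0.19 for B-cell, -0.80 for myeloid, 0.059 for ribosomal and 0.67 for T-cell receptor segment genes. With CD4+ replicate 1 alone it was -0.083 for CD8 lineage, 0.044 for help and costimulation, -0.27 for helper effector, -2.04 for cytotoxic, -0.24 for migration, 0.025 for integrin, 0.49 for Ly6, -0.39 for heat-shock, -0.072 for B-cell and 0.065 for ribosomal genes. Leaving out the 3 CD4+ samples gave 1.48 for helper effector, -0.011 for cytotoxic and 0.42 for Ly6 genes, and the depth covariate -0.88 for cytotoxic and 0.21 for glycolysis genes. A mean above 10 gave 0.24 for proliferation, 4.16 for B-cell and 0.63 for receptor segment genes. edgeR gave 5.28 and DESeq2 4.96 for B-cell, and -5.60 and -5.94 for erythroid genes. Leaving out each sample gave -0.061 to 0.33 for CD8 lineage, -0.71 to 0.045 for cytotoxic, 0.32 to 1.33 for Ly6 and 2.04 to 3.33 for B-cell genes. The share of CD4-higher promoters with the motif was 24.2% with all samples. It was 60.0% with the B-cell covariate and 66.7% with replicate 1 alone, each from few promoters. The ratio of distances between and within groups was 1.06 with all samples, 1.15 with a mean above 10 and 1.13 without the 3 CD4+ samples.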

Other observations

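Genes called outside the lists and the naming rule were looked at after their values were seen. On the CD8+ side, Dpp4, encoding the peptidase CD26, averaged 27.3 ± 8.42 (SD, n = 4) in CD8+ and 9.27 ± 3.54 (SD, n = 5) in CD4+ samples (2.95-fold, adjusted p = 0.00167 in limma). Tgtp2, an interferon-inducible GTPase whose counts are uncertain because of its near-identical copy Tgtp1, averaged 51.6 ± 10.6 and 23.5 ± 5.6 (adjusted p = 0.00108). The cytokine gene Mif averaged 99.6 ± 13.2 and 60.5 ± 22.9 (adjusted p = 0.0087), and this call ended without CD4+ replicate 3 or CD8+ replicate 2 (adjusted p = 0.0702 to 0.112). The kinase gene Pim2 averaged 29.7 ± 9.86 and 13.1 ± 6.43 (adjusted p = 0.0185), a call that ended without CD4+ replicates 1 or 3 or CD8+ replicates 1 or 6 (adjusted p = 0.0533 to 0.159). Of the 3 called genes higher in CD8+ samples that were at 0 in every CD4+ sample, Adgrg5 is described above. Lcn4, a lipocalin gene, read 13.7, 9.31, 6.18 and 9.61 in CD8+ samples, at least 16.5-fold higher. Gm30948, a gene model in the immunoglobulin heavy-chain locus whose counts are uncertain, read 8.56, 2.79, 5.3 and 5.77, and its call ended without CD8+ replicate 3 or 6, while without CD8+ replicate 1 its mean fell below the filter.

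On the CD4+ side, Itm2a, a membrane protein gene induced in thymic selection, read 20.6, 14.6, 10.1, 14.2 and 22.5 in CD4+ and 1.71, 2.79, 7.07 and 0 in CD8+ samples (5.67-fold, adjusted p = 9.52e-05). The tetraspanin gene Cd9 averaged 15.8 ± 2.15 and 3.85 ± 2.3 (adjusted p = 0.000812), and Ass1, which encodes the enzyme that makes argininosuccinate from citrulline, 36.1 ± 8.7 and 14.4 ± 4.03 (adjusted p = 0.000881). Besides Cd79a, Zfp467 was the other called gene at 0 in every CD8+ sample. It read 4.12, 8.237, 7.31, 5.7 and 11.3 in CD4+ samples, at least 10.8-fold higher.

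Cd72, a gene known from B cells, was higher in CD8+ than in CD4+ samples, at 12, 15.8, 12.4 and 12.5 against 6.18, 4.58, 2.74, 4.75 and 3.38 (adjusted p = 0.0385), whereas the summed B-cell markers were higher in 4 CD4+ samples. The call ended without CD4+ replicates 3, 4 or 6 or CD8+ replicates 1, 2, 3 or 6 (adjusted p = 0.0527 to 0.2).

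The calls of all 11 of these genes described here, outside Adgrg5 and Cd79a, ended with the B-cell covariate (adjusted p = 0.0568 to 0.858), while in each the log2 difference stayed within 1.5 times of that with all samples, as for Dpp4 (-1.48 and -1.53 with the covariate), Cd9 (1.89 and 1.86) and Ass1 (1.27 and 1.57). With CD4+ replicate 1 alone 9 calls ended (adjusted p = 0.0951 to 0.635), those of Lcn4 and Zfp467 excepted, of which Zfp467 could not be tested. The calls of Dpp4, Pim2, Gm30948, Ass1 and Cd72 ended with the total of molecules as a covariate (adjusted p = 0.105 to 0.201), those of Gm30948, Cd9, Mif and Cd72 with the mouse as a fixed block (adjusted p = 0.0558 to 0.37) and those of Pim2 and Cd72 in DESeq2 (adjusted p = 0.0598 to 0.0785), with differences within 1.5 times.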
